A study of Medicago truncatula and Hordeum vulgare with 90 samples.

Results

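Roots overexpressing a miR171h-resistant form of NSP2 (miRR-NSP2ox) were compared with roots overexpressing the native form (NSP2ox), to ask what differs when the NSP2 transcript escapes the microRNA. The members are the 6 hairy-root libraries of these groups, 3 miRR-NSP2ox and 3 NSP2ox, chosen by their sample labels out of 90 libraries in the series. All 6 came from Medicago truncatula of the A17 ecotype, a legume that forms both nodules and arbuscular mycorrhiza. The miRR-NSP2ox roots carried pBdEF1a:3xMyc-MtNSP2-miRR and the NSP2ox roots carried pBdEF1a:3xMyc-MtNSP2, so both constructs had the same promoter and the same Myc tag. A further 3 libraries of roots transformed with an empty vector (EV) give the level without either transgene. Transformation used Agrobacterium rhizogenes strain ARqua1, which gives a plant transgenic hairy roots under an untransformed shoot, and roots were selected by their red RUBY reporter. All groups grew for 21 days with full nutrition (+P+N), 5 mM nitrate and 0.5 mM phosphate.

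NSP2 is a transcription factor of the GRAS family that acts with NSP1 in nodulation and mycorrhizal signalling and in the biosynthesis of strigolactones, the root signals that stimulate arbuscular mycorrhizal fungi. miR171h is a microRNA that targets the NSP2 transcript in M. truncatula, and a resistant transcript carries changes in the target site. Strigolactones are apocarotenoids. They are made from the plastid carotenoid pathway, and D27 directs carotene into their synthesis.

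The libraries held 19913016 to 21590383 counts in miRR-NSP2ox roots, 18251230 to 25919307 in NSP2ox roots and 19356084 to 20243566 in EV roots. Levels are given as CPM, counts scaled to library size, after TMM scaling of the library sizes. Log-scale levels correlated across genes at 0.9845 to 0.9873 between miRR-NSP2ox libraries and at 0.9841 to 0.9893 between NSP2ox libraries, against 0.9648 to 0.9738 between libraries of the 2 groups. The 28 genes on 2 unplaced scaffolds took 2.57% to 4.7% of counts in miRR-NSP2ox roots, 2.65% to 7.07% in NSP2ox roots and 1.4% to 10.3% in EV roots, but at most 0.0197% in any seedling library. The library numbered 1 had the highest share in each of the 3 groups. The level of NSP2 itself and markers of root tissue could not be examined, because no source used here pairs them with the gene identifiers of the count table, so the construct labels were not checked against the data. The labels do not say whether replicates came from separate plants. The p-values therefore measure the spread between these libraries only.

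The 8 genes of the carotenoid and strigolactone pathway that the study pairs with identifiers were higher in miRR-NSP2ox than in NSP2ox roots in 6 cases, and none was lower. They were D27, PSY, GGPPS, CYP722C, CRTISO and LUT5, with differences between 1.28-fold and 2.05-fold. Among all 24004 genes tested, 11.9% were called higher and 8.65% lower by edgeR's quasi-likelihood test at an adjusted p under 0.05. For the same 6 genes every miRR-NSP2ox library exceeded every NSP2ox library, which 19.2% of all genes tested did. The median log2 fold change was 0.54 over the 8 genes and -0.01 over all genes tested. The study picked these genes partly for being higher in miRR-NSP2ox than in EV roots, so they are not independent evidence of the direction.

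GGPPS (Medtr5g019460) makes geranylgeranyl diphosphate, the substrate from which carotenoids are built. Its level was 5.90, 10.6 and 10.2 CPM in miRR-NSP2ox roots, 2.92, 5.66 and 4.49 CPM in NSP2ox roots, and 1.98, 1.81 and 2.26 CPM in EV roots. The lowest miRR-NSP2ox library stood just above the highest NSP2ox library, and every NSP2ox library stood above every EV library. The log2 fold change of miRR-NSP2ox over NSP2ox was 1.04 with a standard error (SE) of 0.24 (adjusted p = 0.0066 by edgeR).

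PSY (Medtr3g083630) encodes phytoene synthase, the first committed step of carotenoid synthesis. It reached 10.4, 9.93 and 9.94 CPM in miRR-NSP2ox roots, against 3.21, 6.29 and 5.6 CPM in NSP2ox roots and 0.44, 1.41 and 1.38 CPM in EV roots. The 3 miRR-NSP2ox libraries lay close together, while the NSP2ox libraries were spread over a wider range beneath them. Its log2 fold change was 1.00 (SE 0.19, adjusted p = 0.0018 by edgeR).

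CRTISO (Medtr1g054965), a carotenoid isomerase of lycopene formation, stood at 58.8, 63.2 and 62.3 CPM in miRR-NSP2ox roots, 43.5, 40.2 and 42.0 CPM in NSP2ox roots and 24.0, 23.6 and 22.4 CPM in EV roots. The groups formed 3 tight and separate levels. The log2 fold change of miRR-NSP2ox over NSP2ox was 0.55 (SE 0.07, adjusted p = 6.4e-05 by edgeR).

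LUT5 (Medtr7g079440), a carotene hydroxylase on the way to xanthophylls, was measured at 91.2, 98.5 and 89.4 CPM in miRR-NSP2ox roots, 67.2, 62.8 and 64.5 CPM in NSP2ox roots and 52.3, 58.4 and 55.2 CPM in EV roots. Here the step between the overexpressors was wider than the step between NSP2ox and EV. Its log2 fold changes were 0.52 (SE 0.07, adjusted p = 7.7e-05 by edgeR) for miRR-NSP2ox over NSP2ox and 0.23 for NSP2ox over EV.

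D27 (Medtr1g471050), the isomerase at the entry of strigolactone synthesis, was at 14.7, 15.9 and 17.2 CPM in miRR-NSP2ox roots, 8.42, 12 and 10.9 CPM in NSP2ox roots and 2.26, 2.71 and 2.56 CPM in EV roots. No library of one group overlapped with another. The log2 fold change of miRR-NSP2ox over NSP2ox was 0.61 (SE 0.14, adjusted p = 0.0047 by edgeR). Against EV, the same gene was 6.33-fold higher in miRR-NSP2ox and 4.15-fold higher in NSP2ox roots.

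CYP722C (Medtr8g076940), a cytochrome P450 of the later steps of strigolactone synthesis, had 48.3, 58.6 and 51.9 CPM in miRR-NSP2ox roots, 34.8, 46.2 and 43.0 CPM in NSP2ox roots and 16.2, 19.3 and 19 CPM in EV roots. The overexpressors did not overlap, but the gap between their nearest libraries was narrow. The log2 fold change was 0.36 (SE 0.10, adjusted p = 0.023 by edgeR), and this call was lost on leaving out NSP2ox library 1 (adjusted p = 0.053), NSP2ox library 3 (0.059), miRR-NSP2ox library 2 (0.10) or miRR-NSP2ox library 3 (0.074).

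ZAS and NSY were not called. ZAS (Medtr3g110195) encodes zaxinone synthase, which makes another apocarotenoid, and its level was 47.3, 53.4 and 49.3 CPM in miRR-NSP2ox roots, 41.5, 51.5 and 51.2 CPM in NSP2ox roots and 16.7, 17.8 and 17.1 CPM in EV roots. The overexpressors overlapped, with a log2 fold change of 0.06 whose 95% interval ran from -0.14 to 0.25 (adjusted p = 0.72 by edgeR). NSY (Medtr2g086700), neoxanthin synthase, was at 17.7, 20.0 and 20.7 CPM in miRR-NSP2ox roots, 14, 19.4 and 14.2 CPM in NSP2ox roots and 8.58, 10.2 and 9.94 CPM in EV roots. One NSP2ox library lay within the miRR-NSP2ox range, and the log2 fold change of 0.30 had a 95% interval of 0.02 to 0.58 (adjusted p = 0.12 by edgeR). Without that library, NSP2ox library 2, the log2 fold change of NSY was 0.47 and was called (adjusted p = 0.014).

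**Figure D1:**
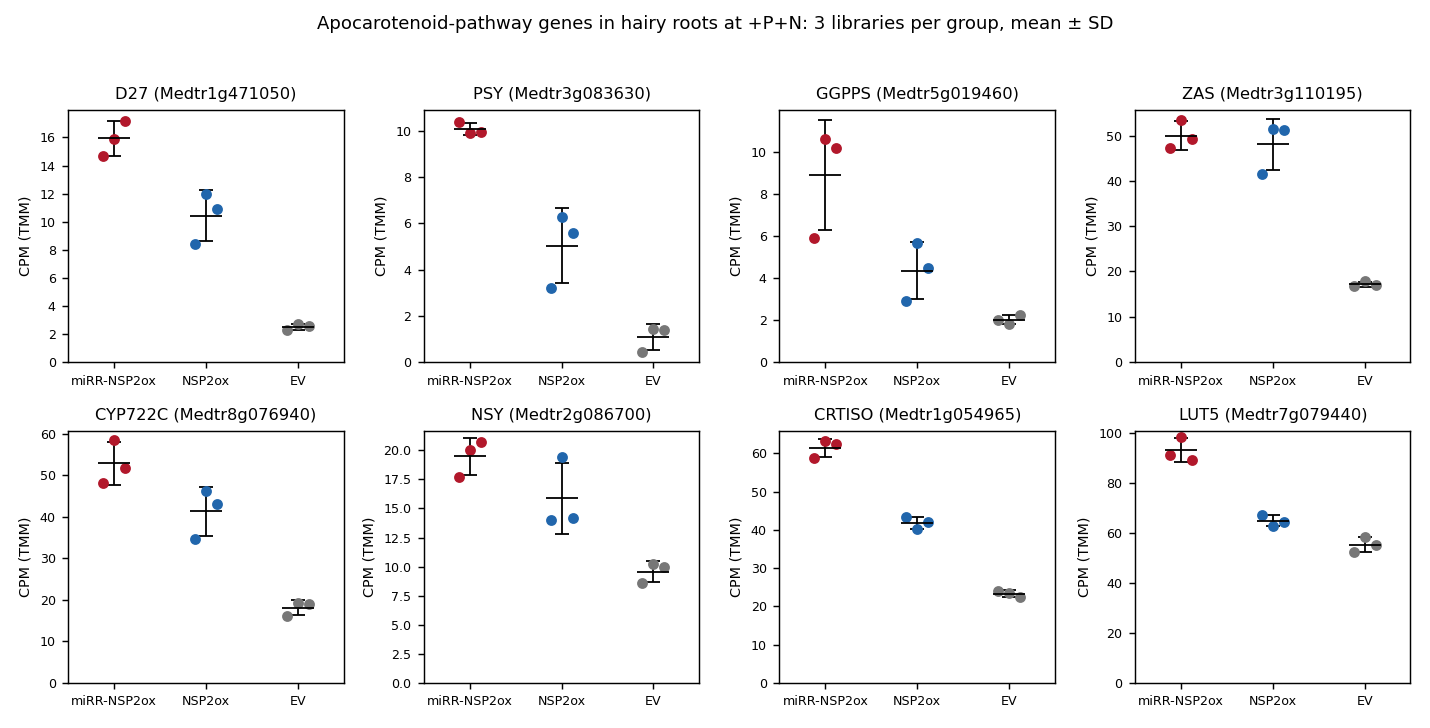
TMM-scaled CPM (y axis, from 0) of the 8 named genes in the 3 miRR-NSP2ox, 3 NSP2ox and 3 EV libraries. Points are libraries in order of replicate number, and bars give the mean ± SD (n = 3). CRTISO and LUT5 show separate levels for miRR-NSP2ox and NSP2ox, whereas the ZAS libraries of these groups overlap at 47.3 to 53.4 and 41.5 to 51.5 CPM.

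Both overexpressors had all 8 genes called higher than EV, with 16.3% of all genes tested called higher in miRR-NSP2ox and 14.1% in NSP2ox. These comparisons share the EV libraries. The log2 fold change of GGPPS over EV was 2.14 in miRR-NSP2ox and 1.11 in NSP2ox roots. That of PSY was 3.2 in miRR-NSP2ox and 2.20 in NSP2ox, and that of CRTISO was 1.40 in miRR-NSP2ox and 0.84 in NSP2ox. For ZAS the values lay side by side, at 1.54 in miRR-NSP2ox and 1.48 in NSP2ox roots. In the seedlings these 8 genes had log2 fold changes of 0.92 to 5.21 at -P-N over +P+N, and of -2.84 to -0.75 in nsp2 over A17 at -P-N, comparisons on which the study also chose them.

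The library numbered 1 was the lowest of its group for 6 of the 8 genes in miRR-NSP2ox, in NSP2ox and in EV roots, and it was also the one with the most counts on the 2 scaffolds. Without NSP2ox library 1, the log2 fold changes of miRR-NSP2ox over NSP2ox were 0.83 for GGPPS, 0.77 for PSY and 0.48 for D27, and all 3 were still called. The part of the scaffold counts in these values was not tested beyond leaving the 28 genes out, which changed none of the calls on the 8 genes.

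The difference between the overexpressors was not limited to this pathway. Of the 24004 genes tested, 4934 were called (20.6%), 2857 of them higher and 2077 lower in miRR-NSP2ox than in NSP2ox roots. Of the called genes, 1352 were over 1.5-fold higher (5.63% of all genes tested) and 1143 over 1.5-fold lower (4.76%), 632 were over 2-fold higher and 533 over 2-fold lower, and 132 were over 4-fold higher and 95 over 4-fold lower. The count depended on the libraries, with 3160 genes called without miRR-NSP2ox library 3 and 3280 without NSP2ox library 3. In comparison, 7303 genes (30.4%) were called in miRR-NSP2ox against EV and 6162 (25.7%) in NSP2ox against EV.

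**Figure D2:**
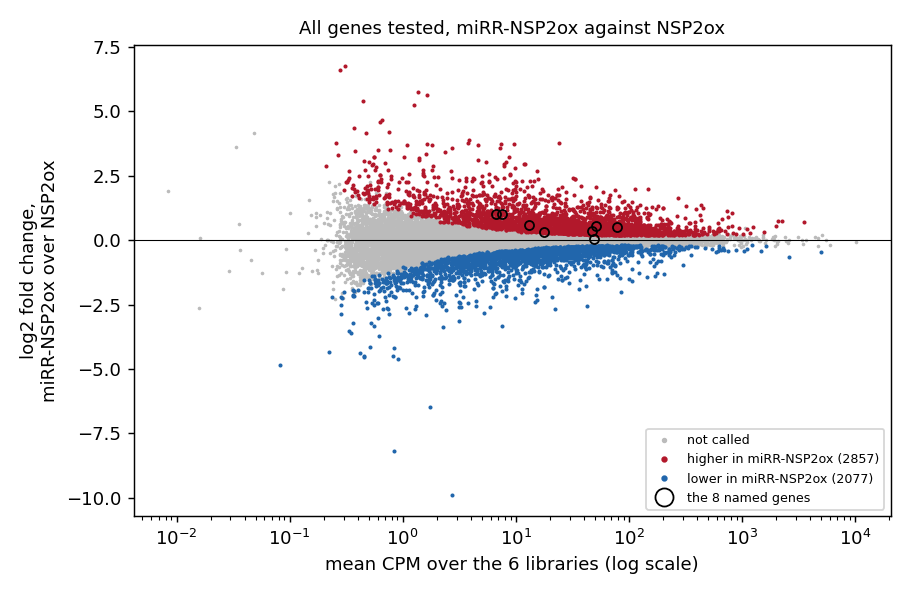
Log2 fold change of miRR-NSP2ox over NSP2ox (y axis) against mean CPM over the 6 libraries (x axis, log scale) for the genes tested. Colours mark the 2857 genes called higher and the 2077 called lower in miRR-NSP2ox, grey marks genes not called, and open circles mark the 8 named genes, all on the positive side at log2 fold changes of 0.06 to 1.04.

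The same genes were then set beside EV. The 2857 genes called higher in miRR-NSP2ox had median log2 fold changes over EV of 0.40 in miRR-NSP2ox and -0.09 in NSP2ox roots. The 2077 genes called lower had medians over EV of -0.19 in miRR-NSP2ox and 0.44 in NSP2ox roots. For 638 of the 2857 genes (22.3%) the 3 EV libraries lay below both overexpressors, as they did for D27, PSY and CRTISO. For 224 (7.84%) EV lay between them and for 190 (6.65%) above both. For the remaining 1805 (63.2%) the EV libraries overlapped with at least 1 of the groups. Among the 2077 genes called lower in miRR-NSP2ox, EV lay below both overexpressors for 351 (16.9%) and between them for 146 (7.03%). It lay above both for 200 (9.63%) and overlapped for 1380 (66.4%). These positions were not counted over all genes tested, so the shares describe the called genes and have no background beside them.

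The lists described next come from roots of seedlings, in libraries that the hairy-root comparison does not use. Seedlings of the A17 line and of the nsp1-1 and nsp2-2 mutants had been grown for 15 days with nitrate, phosphate or both left out. They grew on plates, and their +P+N medium held the same 5 mM nitrate but several times more phosphate than the 0.5 mM given to the hairy roots, so +P+N is not one condition in both. In these comparisons a gene entered a list if it changed more than 1.5-fold and its adjusted p was under 0.05. Of genes that were induced by combined starvation (-P-N against +P+N in A17), more were lower than higher, with both shares above those over all genes tested. Of 3880 such genes tested in hairy roots, 500 were higher (12.9%) and 693 lower (17.9%) in miRR-NSP2ox than in NSP2ox, with a median log2 fold change of -0.08. Among genes that starvation repressed more were higher, with 796 of 3417 higher (23.3%) and 242 lower (7.08%) and a median of 0.11. Counts on both sides were smaller without miRR-NSP2ox library 3, with 376 higher and 440 lower among induced genes and 584 higher and 160 lower among repressed genes. Without NSP2ox library 3 they were 387 higher and 457 lower among induced genes and 590 higher and 161 lower among repressed genes. Over EV, the induced genes were 16.5% higher and 19.8% lower in miRR-NSP2ox, and 22.5% higher and 15.5% lower in NSP2ox. The repressed genes were 29.1% higher and 7.32% lower in miRR-NSP2ox, and 19.3% higher and 12.9% lower in NSP2ox. All genes tested were 16.3% higher and 14.1% lower in miRR-NSP2ox, and 14.1% higher and 11.6% lower in NSP2ox. Across 22803 genes the log2 fold change of miRR-NSP2ox over NSP2ox had a Pearson's r of -0.15 and a Spearman's rho of -0.14 with the seedling response to -P-N, given as a description because genes are not independent replicates.

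Nitrate starvation alone gave counts raised on both sides of the shares over all genes tested, 11.9% higher and 8.65% lower, for its induced genes. Of 3598 genes higher at +P-N, 563 were higher (15.6%) and 703 lower (19.5%) in miRR-NSP2ox than in NSP2ox, with a median of -0.08. These counts came closer together without miRR-NSP2ox library 3, at 451 higher and 476 lower. Without NSP2ox library 3 they were 459 higher and 485 lower. Of 3210 genes lower at +P-N, 735 were higher (22.9%) and 233 lower (7.26%), with a median of 0.11. Both counts fell to 532 higher and 143 lower without miRR-NSP2ox library 3, and to 542 higher and 154 lower without NSP2ox library 3.

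Phosphate starvation alone gave fewer genes, and its induced genes had similar counts on both sides. Over all genes tested, 11.9% were higher and 8.65% lower. Both shares of the induced genes were above these, the lower share further. Of 1032 genes higher at -P+N, 173 were higher (16.8%) and 181 lower (17.5%) in miRR-NSP2ox, with a median of -0.03. The order of these counts turned round in 4 of the 6 cases in which a library was left out. There were 134 higher and 113 lower without miRR-NSP2ox library 3, 137 higher and 119 lower without NSP2ox library 3, 159 higher and 143 lower without miRR-NSP2ox library 2, and 159 higher and 147 lower without NSP2ox library 2. Of 1026 genes lower at -P+N, 290 were higher (28.3%) and 121 lower (11.8%), with a median of 0.15.

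The 627 genes repressed in all 3 regimes had the highest median of the starvation lists, 0.22, with 197 higher (31.4%) and 58 lower (9.25%). The shares over all genes tested were 11.9% higher and 8.65% lower. The counts of these repressed genes were 176 higher and 38 lower without NSP2ox library 2, and 156 higher and 38 lower without NSP2ox library 3. Without miRR-NSP2ox library 3 they were 161 higher and 39 lower. The 687 genes induced in all 3 had 104 higher (15.1%) and 132 lower (19.2%), with a median of -0.06. Without miRR-NSP2ox library 3 their counts were nearly equal, at 84 higher and 85 lower, and without NSP2ox library 3 they were 84 higher and 94 lower.

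Genes that were lower in the nsp mutants in starved seedlings had positive medians, unlike the induced genes as a whole. Genes higher in nsp2 had a positive median too, so this was not particular to genes lower in the mutants. Across 22803 genes the log2 fold change of miRR-NSP2ox over NSP2ox correlated weakly and positively with that of mutant over A17 at -P-N. Spearman's rho was 0.16 for nsp1 and 0.10 for nsp2, and Pearson's r was 0.09 and 0.01. By this sign, genes lower in a mutant tended to be lower in miRR-NSP2ox, so the lists below do not describe all genes. Over all genes tested, 11.9% were higher and 8.65% lower. Of 91 genes lower in nsp1 than in A17 at -P-N, 31 were higher (34.1%) and 13 lower (14.3%) in miRR-NSP2ox, with a median of 0.24. Of 334 genes lower in nsp2, 60 were higher (18%) and 28 lower (8.38%), with a median of 0.02. Of 147 genes higher in nsp1, 25 were higher (17%) and 17 lower (11.6%), with a median of -0.03, or 0.004 without NSP2ox library 3. Of 191 genes higher in nsp2, 53 were higher (27.7%) and 22 lower (11.5%), with a median of 0.05. Of the 172 genes both induced at -P-N and lower in nsp2, 45 were higher (26.2%) and 23 lower (13.4%), with a median of 0.11. The corresponding 43 genes for nsp1 had 21 higher (48.8%) and 8 lower (18.6%), with a median of 0.37. Without miRR-NSP2ox library 3 the members called lower were 6 for nsp1, 18 for nsp2, 15 for the genes induced and lower in nsp2, and 4 for those induced and lower in nsp1. Without NSP2ox library 3 they were 7 for nsp1, 15 for nsp2, 13 for the genes induced and lower in nsp2, and 5 for those induced and lower in nsp1. Members called higher fell too. Over the 6 libraries left out in turn they were 23 to 31 for nsp1 and 44 to 61 for nsp2. They were 36 to 45 for the genes induced and lower in nsp2, and 18 to 22 for those induced and lower in nsp1.

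Narrowing the list to genes that starvation induced and that were lower in nsp1 and in nsp2 left 31 genes, of which 30 were tested in hairy roots. In miRR-NSP2ox, 16 of the 30 were higher than in NSP2ox (53.3%) and 1 was lower (3.33%), with a median log2 fold change of 0.45. A positive log2 fold change was seen in 28 of the 30. Over all 24004 genes tested, 11.9% were higher and 8.65% lower, and 11726 had a positive log2 fold change. All 8 named genes are in this list. Of the other 22, which have no name in the sources used here, 10 were higher and 1 lower, with a median of 0.41. Over EV, 26 of the 30 (86.7%) were called higher in miRR-NSP2ox (median 1.24), where 16.3% of all genes tested were. In NSP2ox 22 of the 30 (73.3%) were called higher over EV (median 0.81), against 14.1% of all genes tested. These counts include the 8 named genes, which the study chose partly for being higher than EV. Of the 22 others, 18 were higher and 1 lower over EV in miRR-NSP2ox, and 14 higher and 2 lower in NSP2ox. The 16 genes called higher in miRR-NSP2ox than in NSP2ox spanned log2 fold changes of 0.31 to 1.04. Leaving out each of the 6 hairy-root libraries in turn gave 14 to 17 members called higher and 0 or 1 called lower.

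The single member called lower was Medtr5g033490, singled out after its values were seen. It was at 5.95, 6.87 and 5.62 CPM in miRR-NSP2ox roots, 8.04, 11.4 and 8.91 CPM in NSP2ox roots and 1.54, 1.46 and 1.28 CPM in EV roots. Both overexpressors stood above EV, but their order was turned round relative to D27 or PSY, with a log2 fold change of -0.61 (SE 0.16, adjusted p = 0.013 by edgeR). This call was lost without miRR-NSP2ox library 3 and without NSP2ox library 2, each of which left 0 members called lower.

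**Figure D3:**
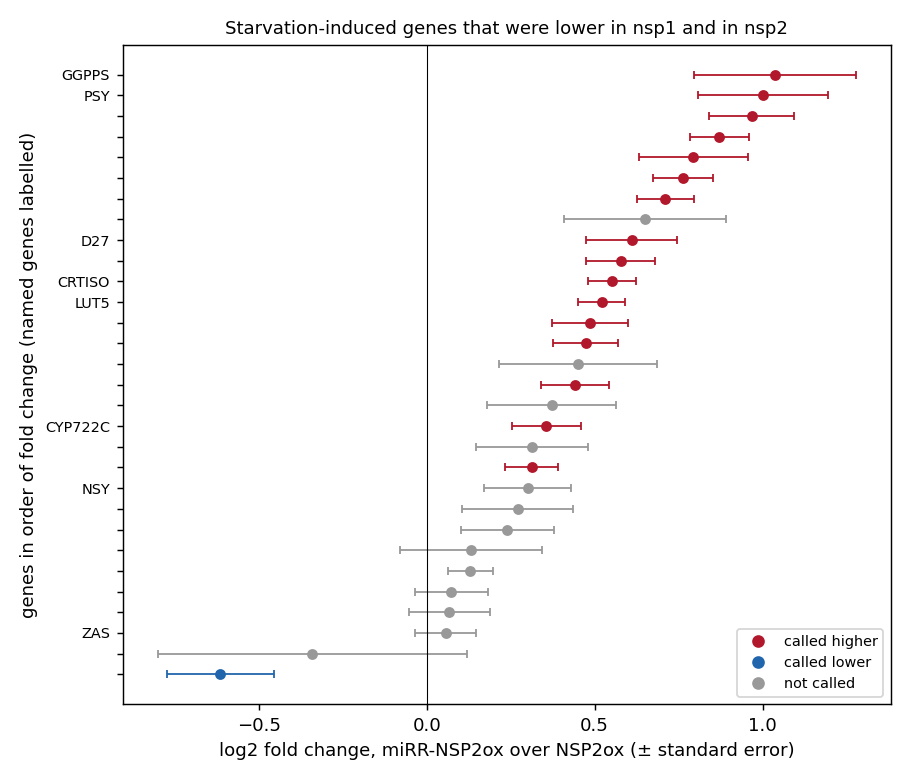
Log2 fold change of miRR-NSP2ox over NSP2ox (x axis) with its standard error for the 30 genes induced at -P-N and lower in nsp1 and in nsp2 in seedlings, in order of fold change, with the 8 named genes labelled. Red marks the 16 genes called higher, blue the 1 called lower and grey those not called. GGPPS and PSY head the list at 1.04 and 1.00, and 28 points lie to the right of 0.

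A wider list took genes induced in all 3 regimes that one mutant or the other had at a lower level than A17 at -P-N. It held 97 genes, 92 of them tested, and 35 were higher (38.0%) and 11 lower (12%) in miRR-NSP2ox, with a median of 0.34. Over EV its medians were 0.34 in miRR-NSP2ox and 0.20 in NSP2ox roots. The seedling lists that combine starvation and a mutant use the same A17 libraries at -P-N in both steps. When these lists were rebuilt without the seedling libraries numbered 1, 2 or 3, the list lower in both mutants held 45, 29 and 18 tested genes, with 22, 15 and 10 higher in miRR-NSP2ox and 2, 1 and 0 lower. Without the libraries numbered 3, the list induced and lower in nsp2 held 85 tested genes with 24 higher and 14 lower, and the wider list held 47 with 18 higher.

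**Figure D4:**
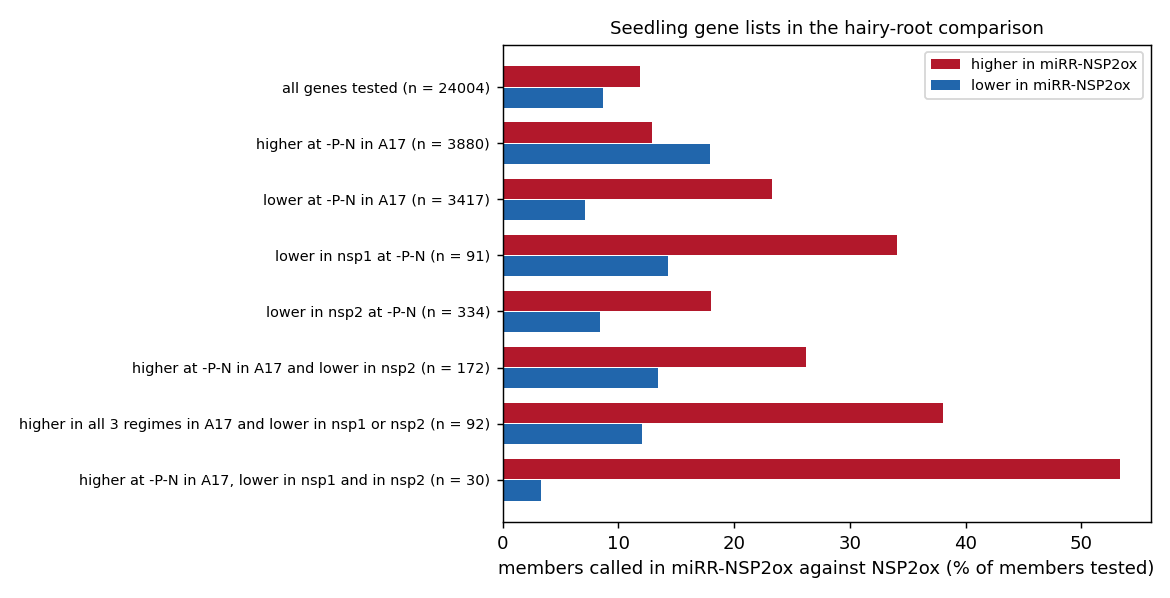
Share of tested members called higher (red) and lower (blue) in miRR-NSP2ox against NSP2ox (x axis, percent, from 0) for all genes tested and for 7 seedling lists, with the number of members tested. All genes stand at 11.9% and 8.65%, genes induced at -P-N at 12.9% and 17.9%, and the 30 genes induced at -P-N and lower in both mutants at 53.3% and 3.33%.

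Among called genes with a mean of at least 1 CPM and no overlap between the groups, the widest differences were found in genes nearly silent in one of the overexpressors. The 2 widest in each direction are given. Medtr4g032995, on chromosome 4 by its identifier, had 72, 42 and 51 counts in miRR-NSP2ox roots, 0, 1 and 2 in NSP2ox roots and 43, 162 and 106 in EV roots. Summed over libraries and scaled for depth, this was a ratio of 60.4 of miRR-NSP2ox to NSP2ox, with an exact counting interval of 20.3 to 296. The miRR-NSP2ox libraries overlapped with those of EV in CPM, and the NSP2ox libraries lay below all of them.

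Medtr4g033205 showed the same pattern, with 88, 36 and 70 counts in miRR-NSP2ox roots, 0, 1 and 3 in NSP2ox roots and 43, 170 and 107 in EV roots. The ratio of miRR-NSP2ox to NSP2ox was 53.2, with a counting interval of 20.5 to 197. The 2 genes were the ends of a run of 7 tested genes of chromosome 4 that follow each other in the deposited counts. All 7 were over 2-fold higher in miRR-NSP2ox, at log2 fold changes of 1.32 to 5.76. In all 7 every EV library exceeded every NSP2ox library.

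In the other direction, Medtr5g460910 had 0 counts in each miRR-NSP2ox library, against 89, 125 and 157 in NSP2ox roots and 0, 1 and 0 in EV roots. It was at least 113-fold lower in miRR-NSP2ox when 3 counts over that group were taken as the limit a count of 0 allows. Medtr5g060770 had 1, 0 and 1 counts in miRR-NSP2ox roots, 48, 88 and 94 in NSP2ox roots and 0, 1 and 0 in EV roots. Its summed level was 105 times as high in NSP2ox as in miRR-NSP2ox roots, with a counting interval of 28.7 to 871. Both genes passed the filter on low counts only through the NSP2ox libraries. Like Medtr4g032995 and Medtr4g033205, they were picked for the width of their difference, so all these values are a description and no test is given. Among these 3 groups, counts of Medtr5g460910 and Medtr5g060770 were found almost only in NSP2ox roots. Counting intervals cover counting error alone.

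**Figure D5:**
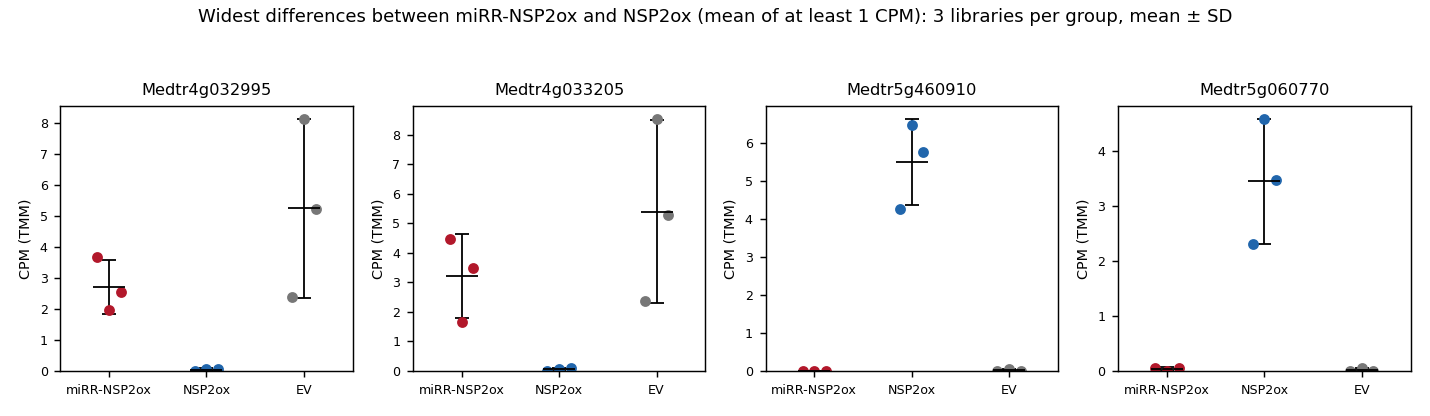
TMM-scaled CPM (y axis, from 0) of the 4 unnamed genes with the widest called differences at a mean of at least 1 CPM, in the 3 miRR-NSP2ox, 3 NSP2ox and 3 EV libraries, with mean ± SD bars (n = 3). The 2 genes of chromosome 4 are near 0 only in NSP2ox, and the 2 genes of chromosome 5 are near 0 in miRR-NSP2ox and EV.

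Other runs of neighbouring genes that differed in the same direction occurred elsewhere, but not all shared the EV position of the chromosome 4 run. Stretches of at least 3 tested genes were counted that followed each other and were all called and over 2-fold in the same direction. The order was that of the deposited counts, which is not always the order of the identifiers. Of such runs, 22 with 78 genes were higher in miRR-NSP2ox, the longest of 7 genes. Lower in miRR-NSP2ox were 2 runs with 9 genes, the longest of 6 genes on chromosome 3. In that run of 6, at log2 fold changes of -4.86 to -1.68, every EV library also exceeded every NSP2ox library. The same held for all 4 genes from Medtr5g094540 to Medtr5g094570 on chromosome 5. It held for 0 of the 5 genes from Medtr2g075540 to Medtr2g075600 on chromosome 2, and several other runs also had 0 such genes. The numbers of runs have no background beside them. How reads that map to several genes were counted is not given in the sources used here, so levels of near-identical neighbours are uncertain.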

How the data were processed

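RNA of hairy roots was sequenced after poly-A enrichment as paired-end reads. Per the labels and the study's methods, the authors checked reads with FastQC, mapped them with STAR to the M. truncatula genome Mt4.0v1 and counted them per gene with featureCounts; the deposited whole-number counts are not normalized. Versions, strand and the handling of multiply mapped reads are not given in the sources used here.

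The table held 50894 gene identifiers for 12 hairy-root libraries, and 0 columns went unmapped. Genes were kept where at least 3 of the 12 libraries reached 0.494 CPM, the level of 10 counts in the median library, which left 24004. Each comparison was fitted on its own 3 against 3 libraries with edgeR 4.0.16 (quasi-likelihood, TMM factors from all 12 libraries) in R 4.3.3, and p-values were adjusted by the Benjamini-Hochberg method over all genes tested with a threshold of 0.05. Seedling lists came from the same test on 24630 genes of the 36 seedling libraries. The smallest p that an exact permutation of 3 against 3 libraries allows is 0.1, so none is given. The standard error is the size of the log2 fold change divided by the square root of F, and 95% intervals are not adjusted for multiple testing. At these depths the spread between replicates exceeded counting noise for every replicate pair, but unevenly. As a chi-square per gene, near 1 under counting noise alone, pairs with NSP2ox library 1 had 25.9 and 25, and the other pair 4.1. Pairs with EV library 1 had 80.7 and 53.7, and the other pair 9.49. In miRR-NSP2ox, libraries 1 and 2 had 13.3, libraries 1 and 3 had 4.27, and libraries 2 and 3 had 8.18.

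Named genes were the 8 that the study pairs with identifiers and, as no table used here names the others, the 2 widest called differences in each direction. Of the identifiers, 0 matched the RefSeq gene table of MtrunA17r5.0, so lists by gene description and marker lists could not be applied, and NSP2 was not identified. The libraries, lists and alternatives were chosen with earlier results of these data known. Lists of genes lower at -P-N, changed at +P-N, at -P+N or in all 3 regimes, higher in a mutant, lower in nsp1 among induced genes or lower in both mutants, as well as leaving out the scaffold genes and rebuilding the lists, were added after the data were seen. The test was tried on simulated counts of 24001 genes, of which 200 were changed. There 7.77% of calls were false, a share above the threshold of 0.05. Far more genes were called in the real comparison than were changed there, so this share does not measure the false calls among the real ones. Figures were drawn with matplotlib 3.10.9 in Python 3.11.15. NSP1ox hairy roots entered only the filter, the TMM factors and one alternative, and barley was not analysed here.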

Additional observations from a re-analysis of the deposited data

How the results depend on the processing

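The number of genes called between miRR-NSP2ox and NSP2ox was 4934 and lay between 4487 and 5640 with a filter in at least 1 library, no filter, RLE size factors, TMM factors of the 6 libraries, DESeq2 1.42.0, all 4 groups in one fit, the replicate block and without the scaffold genes. Requiring a fold change over 1.5 left 2495, against 3378 for miRR-NSP2ox over EV and 3425 for NSP2ox over EV, by construction of a stricter threshold. It also raised the share of higher calls over EV to 67.7% in miRR-NSP2ox and 70.3% in NSP2ox. Leaving out each library in turn gave 3160 to 5443 calls between the overexpressors, 5069 to 7165 against EV for miRR-NSP2ox and 4110 to 6501 against EV for NSP2ox.

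The 12 named genes had 180 values under these alternatives, of which 171 kept their direction and their side of the threshold, 7 lost a call, 1 gained one and 1 changed sign. The change of sign was that of ZAS, at -0.038 without NSP2ox library 1, with a range of -0.04 to 0.11 over the libraries left out. The lost calls were those of CYP722C without 1 of 4 libraries, at log2 fold changes of 0.25 to 0.39, and, under a fold change over 1.5 only, CYP722C, CRTISO and LUT5.

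Whether replicate numbers mark a shared batch is not stated. Deviations of same-numbered libraries correlated at -0.043, -0.002 and -0.01 between miRR-NSP2ox and NSP2ox, and at -0.017, -0.002 and 0.021 between miRR-NSP2ox and EV. Between NSP2ox and EV they correlated at 0.124, 0.098 and 0.025. The NSP2ox libraries 1, 2 and 3 correlated with differently numbered EV libraries at -0.127 to -0.011, -0.082 to -0.01 and -0.058 to 0.042. The libraries were treated as sharing only a number, which was a choice and was not tested further. With the replicate block 4487 genes were called between the overexpressors, 6683 in miRR-NSP2ox and 7062 in NSP2ox against EV. Without it these were 4934, 7303 and 6162, so the block raised the calls only for NSP2ox against EV. No named gene changed its call between the overexpressors. Depth limits the genes near silence, where a few counts set the ratio.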
